A study of Homo sapiens with 8 samples.

Results

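Enzymes and partners that place DNA methylation and repressive histone marks were examined in HuCCT1, a human intrahepatic cholangiocarcinoma cell line. The 10 genes were UHRF1, UHRF2, HELLS, DNMT1, DNMT3A, DNMT3B, EZH2, EZH1, SUV39H1 and SUV39H2, of 34809 gene names on the array, and all 10 were among the 20464 genes tested. They were chosen by name, as families with their paralogs, with earlier results of the same arrays known, and the probe of each gene was picked by its mean level over the 8 arrays. Counts over these genes are therefore descriptions and no independent evidence of their direction.

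The cells carried retroviral short hairpin vectors called shControl, shNontarget, shBEX2-1 and shBEX2-2, and each vector was read on 2 arrays. The labels call shControl and shNontarget control and both BEX2 hairpins knockdown, and the study describes its control as a hairpin against luciferase without saying which of the control vectors this is. All groups are sublines of 1 cell line that carry a hairpin vector, and nothing in the sources used here says whether arrays of 1 vector came from separate cultures, so that p-values measure the spread between these arrays, which may be technical. The comparison asks how these genes differ when BEX2, a small adaptor protein that the study links to dormant cancer stem cells, is reduced.

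Cytosine methylation at CpG sites is copied after DNA replication. UHRF1 recognizes the half-methylated site left behind the fork and recruits DNMT1, the maintenance methyltransferase, while HELLS, a SNF2-family remodeller, opens nucleosomes for it. DNMT3A and DNMT3B place new methyl groups. EZH2 and its paralog EZH1 are the catalytic subunits of Polycomb repressive complex 2 (PRC2), which places the H3K27 methyl mark, and SUV39H1 and SUV39H2 place the H3K9 methyl mark in constitutive heterochromatin. UHRF1, HELLS, DNMT1 and EZH2 are known to be most abundant in cycling cells.

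Promoter windows are shown because HELLS and UHRF1, the members that differed most, are known to be most abundant in cycling cells. A part of such elements in the differences was not tested. Windows ran from 250 bases before to 50 bases after each RefSeq start site of build GRCh38.p14, and they were searched on both strands for a simple E2F-type element of 8 bases in the 4 variants TTTCCCGC, TTTCGCGC, TTTGCCGC and TTTGGCGC. The sequences below run from 120 bases before to 20 bases after a start site, 5′ to 3′ on the strand of the gene, with each match in capitals.
UHRF1: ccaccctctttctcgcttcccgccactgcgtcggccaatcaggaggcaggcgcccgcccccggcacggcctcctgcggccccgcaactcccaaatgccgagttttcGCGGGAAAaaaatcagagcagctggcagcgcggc
HELLS: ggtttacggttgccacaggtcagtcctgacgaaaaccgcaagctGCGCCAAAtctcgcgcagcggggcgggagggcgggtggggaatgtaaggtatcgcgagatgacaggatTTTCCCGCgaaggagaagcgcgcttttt
DNMT1: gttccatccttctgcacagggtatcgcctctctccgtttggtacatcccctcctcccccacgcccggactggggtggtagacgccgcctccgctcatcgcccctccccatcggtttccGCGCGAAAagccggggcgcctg
EZH2: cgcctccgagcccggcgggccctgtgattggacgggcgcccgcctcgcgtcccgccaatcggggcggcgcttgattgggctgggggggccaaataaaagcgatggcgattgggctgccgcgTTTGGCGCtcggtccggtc
EZH1: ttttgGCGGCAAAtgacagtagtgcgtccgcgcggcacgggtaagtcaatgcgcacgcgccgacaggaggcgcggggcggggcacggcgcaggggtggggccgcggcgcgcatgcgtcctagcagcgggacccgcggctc

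These windows lie at chr19:4909381-4909520 on the plus strand for UHRF1, chr10:94545668-94545807 on the plus strand for HELLS, chr19:10194934-10195073 on the minus strand for DNMT1, chr7:148884272-148884411 on the minus strand for EZH2 and chr17:42745021-42745160 on the minus strand for EZH1. Counting the start base as 1 and the base before it as -1, the first base of the match was at -14 in UHRF1, at -76 and -8 in HELLS, at -2 in DNMT1, at 2 in EZH2 and at -115 in EZH1. A window of another UHRF1 start site held a match at -160. The windows of UHRF2, DNMT3A, DNMT3B, SUV39H1 and SUV39H2 did not hold these letters. A match was thus found for 5 of the 10 members, against 3.99% of 27305 genes with a window and 6.4% of the 9323 tested genes whose array name is in the promoter table. Among called genes found by name in the promoter table, it was held by 12.1% of 785 called higher in BEX2-knockdown cells and 4.85% of 743 called lower. The other called genes, of 1366 higher and 1280 lower, were not searched. EZH1, which was not called, has a match, and SUV39H1, which was called higher, has none. A match describes the letters of the window and not a bound site.

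The targeted gene checks the labels. The normalized log2 intensity of BEX2, relative to the 75th percentile of each array, was -3.36 and -3.91 in shControl, -2.70 and -3.77 in shNontarget, -5.21 and -5.54 in shBEX2-1, and -4.92 and -4.60 in shBEX2-2. All 4 knockdown arrays were below all 4 control arrays, and the log2 difference was -1.63 (SE 0.32, adjusted p = 0.0116 by limma). The probe was well above background on 6 of 8 arrays, not on those of shBEX2-1. BEX2 measured 3.83-fold lower in shBEX2-1 than in control (mean log2 values -5.37 and -3.44, adjusted p = 0.0336 by limma). The size of that difference is uncertain, since the probe was not well above background in shBEX2-1. The log2 difference in shBEX2-2 was -1.32 (adjusted p = 0.0812) and did not pass the threshold. With normexp background correction the difference of all knockdown arrays was -0.45 and was not called (adjusted p = 0.0792). With only shNontarget as control the adjusted p of BEX2 was 0.0787.

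The 8 arrays lay on 1 slide with the control arrays in row 1 and the knockdown arrays in row 2, so that position and group cannot be told apart. On each array 58717 spots were read, of which between 59.8% and 64.6% were well above background and none was saturated. Precision is limited by the number of arrays. The shNontarget arrays stood apart, since 34.9% of genes differed by over 1 log2 unit between them, against 0.562% to 1.76% for the other vectors, and results are given with and without them where this matters. All 6 biliary epithelial markers, among them KRT7 and KRT19, were well above background on all 8 arrays. Only KRT8 of these was called, with a log2 difference of 1.02 (adjusted p = 0.0165 by limma), where 12.9% of all genes were. The hepatocyte genes ALB and TTR, the fibroblast collagens COL1A2 and COL3A1, and endothelial PECAM1 were not well above background on any array, whereas of the same lists COL1A1, CDH5 and VWF were on all 8 arrays and APOA1 on 6. Of 4 leukocyte markers, CD68 and CD14 were well above background on all 8 arrays, PTPRC on 7 and CD3E on 3. CD68 and CD14 were called higher in knockdown cells, by 0.99 (adjusted p = 0.0474 by limma) and 0.54 (adjusted p = 0.0295 by limma). Of all genes 6.68% were called higher. PTPRC was not called, and CD3E was too dim to be tested. The summed relative intensity of the leukocyte list was between 0.733 and 0.917 in control and between 1.23 and 1.63 in knockdown arrays. The part of this in the results below was not tested.

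In BEX2-knockdown cells the maintenance arm rose together, with the log2 fold change at 2.18 for HELLS, 1.74 for UHRF1 and 0.96 for DNMT1, and so did SUV39H1 with 1.09 and EZH2 with 1.04. Their paralogs UHRF2, EZH1 and SUV39H2 and the de novo enzymes DNMT3A and DNMT3B did not pass the test. In the fit across all genes 5 of the 10 members were called higher and 0 lower, where 6.68% of all 20464 genes were called higher, 6.25% lower and 12.9% in all. The median log2 fold change was 0.72 over the 10 members and 0.027 over all genes tested. The groups of 4 arrays did not overlap for the same 5 members, all higher, where 11.5% of all genes did not overlap with knockdown higher and 10.6% with knockdown lower.

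**Figure D1:**
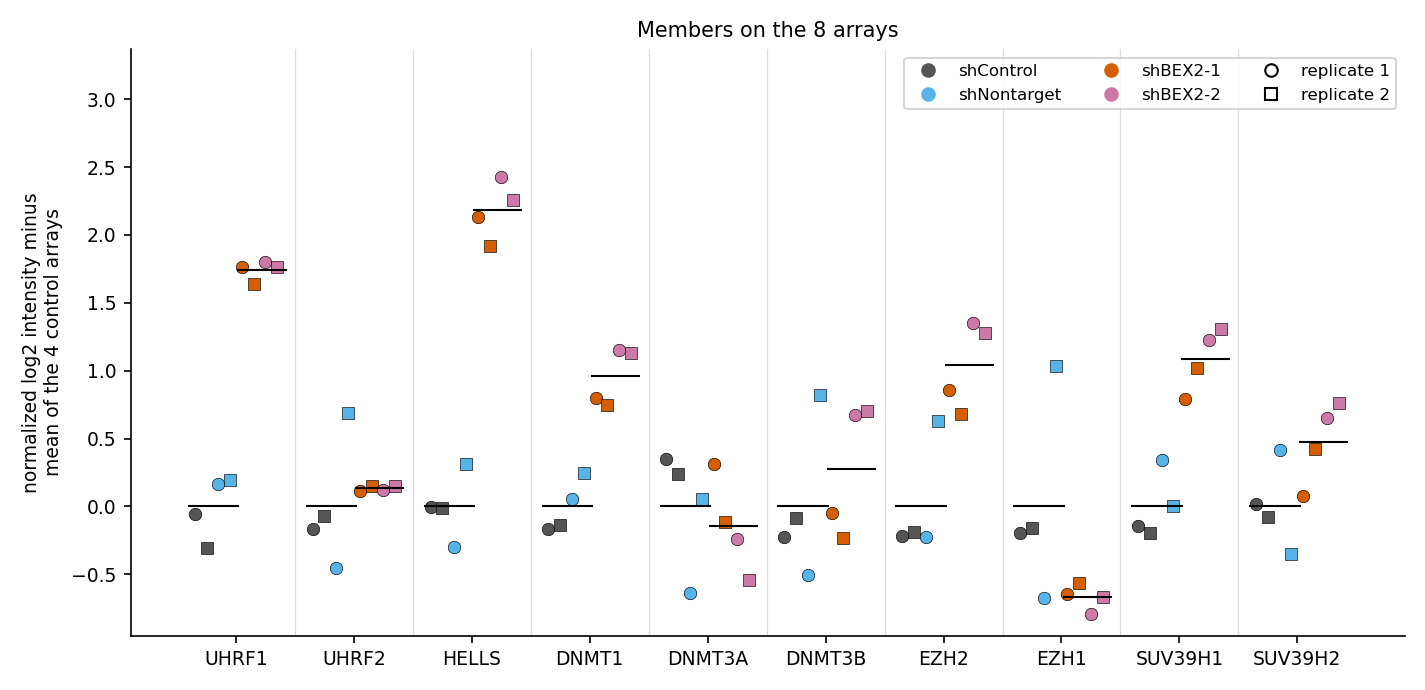
Normalized log2 intensity of each member on the 8 arrays, minus the mean of its 4 control arrays (y axis, log2 units), by gene (x axis). Colour gives the vector, shape the replicate number, and black lines the means of the 4 control and 4 knockdown arrays. All knockdown arrays lie above all control arrays for UHRF1, HELLS, DNMT1, EZH2 and SUV39H1, and the 2 shNontarget arrays lie far apart for UHRF2, DNMT3B, EZH2 and EZH1.

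UHRF1, the reader of half-methylated DNA, had normalized log2 intensities of 0.29 and 0.04 in shControl, 0.51 and 0.54 in shNontarget, 2.11 and 1.98 in shBEX2-1, and 2.15 and 2.11 in shBEX2-2. The knockdown arrays lay close together and far above all control arrays. The difference was 1.74 (SE 0.14, 95% confidence interval 1.43 to 2.05, adjusted p = 0.000621 by limma), a 3.34-fold change. UHRF1 was read by a second probe on the same transcript, NM_013282, which gave a log2 difference of 1.90. The array design places both probes on chromosome 12 of hg19 (from 20707196 to 20707255 and from 20706026 to 20706085), whereas the RefSeq start sites of UHRF1 are on chromosome 19. The name used here is that of the array design.

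HELLS, the remodeller that supports methylation of packed DNA, had the largest difference of the members. Its log2 values were -0.93 and -0.94 in shControl, -1.23 and -0.62 in shNontarget, 1.20 and 0.99 in shBEX2-1, and 1.50 and 1.32 in shBEX2-2. Every knockdown array exceeded every control array by more than the spread within either group. The difference was 2.18 (SE 0.17, 95% confidence interval 1.81 to 2.56, adjusted p = 0.000621 by limma), a 4.54-fold change. A further probe gave 2.21. The pair is shown because probes that read different stretches of the HELLS transcript NM_018063 gave the same size of change, at chr10:96354481-96354540 and chr10:96334433-96334492 of hg19, both on the plus strand.
A_23_P12816: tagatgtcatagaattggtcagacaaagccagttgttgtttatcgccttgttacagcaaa
A_33_P3258117: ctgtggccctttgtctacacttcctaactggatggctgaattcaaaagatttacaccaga

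DNMT1, the enzyme that copies the methylation pattern, had log2 values of 0.57 and 0.60 in shControl, 0.80 and 0.99 in shNontarget, 1.54 and 1.48 in shBEX2-1, and 1.90 and 1.87 in shBEX2-2. The groups did not overlap, and shBEX2-2 was the higher of the sublines on both of its arrays. The difference was 0.96 (SE 0.15, adjusted p = 0.00507 by limma), a 1.94-fold change read by a single probe. Against shNontarget alone it was 0.81 and no longer passed the threshold (adjusted p = 0.0891).

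The intensities before scaling show how far these differences depend on the level of the whole array, since the 75th percentile was between 667 and 838 on control arrays and between 441 and 631 on knockdown arrays. UHRF1 still read between 866 and 1072 on control and between 1911 and 2742 on knockdown arrays. HELLS read between 319 and 437 on control and between 1016 and 1744 on knockdown arrays. Both remained apart without any scaling, whereas DNMT1, with 1086 to 1323 on control and 1288 to 2312 on knockdown arrays, overlapped. The same held for EZH2 (760 to 1251 against 971 to 1906) and SUV39H1 (214 to 308 against 248 to 508), whose separation is one relative to the rest of the array.

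UHRF2, the paralog of UHRF1, did not pass the test. Its log2 values were 0.25 and 0.35 in shControl, -0.03 and 1.11 in shNontarget, 0.54 and 0.57 in shBEX2-1, and 0.54 and 0.57 in shBEX2-2. The 4 knockdown arrays fell within the range of the shNontarget pair. The difference was 0.13 (SE 0.22, 95% confidence interval -0.36 to 0.63, adjusted p = 0.747 by limma). Against shControl alone it was 0.25 and passed the threshold (adjusted p = 0.0402), and without shNontarget 1 it was -0.02. The probes of UHRF2 disagreed in direction, as the second one read a log2 difference of -0.67 with groups that did not overlap (adjusted p = 0.102 by limma over all probes). The pair is shown for that disagreement. Both lie on the plus strand of hg19 and read the transcript NM_152896, the brighter A_33_P3279715 at chr9:6421082-6421141 and A_24_P303815 at chr9:6506080-6506139.
A_33_P3279715: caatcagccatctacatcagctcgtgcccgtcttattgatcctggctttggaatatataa
A_24_P303815: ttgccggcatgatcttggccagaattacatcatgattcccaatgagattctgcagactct

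The de novo methyltransferases were not called, and their difference from DNMT1 was not tested. DNMT3A had log2 values of -0.37 and -0.49 in shControl, -1.36 and -0.67 in shNontarget, -0.41 and -0.84 in shBEX2-1, and -0.96 and -1.26 in shBEX2-2, and its groups overlapped. The difference was -0.15 (SE 0.25, 95% confidence interval -0.71 to 0.42, adjusted p = 0.757 by limma). A second probe of the same transcript, NM_175629, read -0.47 with groups that did not overlap (adjusted p = 0.0523), and a probe of the transcript NM_175630 read 0.10 at a level near -5.10 in control, well above background on 7 arrays. DNMT3A was thus not called by any of its probes.

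DNMT3B differed more between sublines than between the groups. Its log2 values were 0.07 and 0.21 in shControl, -0.21 and 1.11 in shNontarget, 0.25 and 0.06 in shBEX2-1, and 0.97 and 0.99 in shBEX2-2. Only the shNontarget 2 array among the controls reached the level of shBEX2-2. The knockdown difference was 0.27 (SE 0.32, adjusted p = 0.634 by limma). For shBEX2-1 minus shBEX2-2 it was -0.83 (95% confidence interval -1.80 to 0.14, adjusted p = 0.793 by limma), so that a difference between the sublines was not shown either. That interval uses a spread shared by all vectors. The shNontarget arrays differed by 1.32, those of shBEX2-1 by 0.19 and those of shBEX2-2 by 0.03.

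EZH2, the main catalytic subunit of PRC2, had log2 values of 0.06 and 0.09 in shControl, 0.05 and 0.91 in shNontarget, 1.14 and 0.96 in shBEX2-1, and 1.63 and 1.56 in shBEX2-2. The groups did not overlap, but shNontarget 2 lay just below the lowest knockdown array. The difference was 1.04 (SE 0.24, adjusted p = 0.0210 by limma), a 2.06-fold change. This was the least stable of the 5 calls. Its adjusted p was 0.0684 without shControl 1, 0.0681 without shControl 2, 0.0734 without shBEX2-2 1, 0.0699 without shBEX2-2 2 and 0.209 with only shNontarget as control, with log2 differences between 0.84 and 0.98 in these settings.

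EZH1, its paralog and the form known from non-dividing cells, went the other way without passing the test. The log2 values were 0.36 and 0.40 in shControl, -0.12 and 1.59 in shNontarget, -0.09 and -0.01 in shBEX2-1, and -0.23 and -0.11 in shBEX2-2. The knockdown arrays lay below all control arrays except shNontarget 1, which lay among them. The difference was -0.67 (SE 0.31, 95% confidence interval -1.37 to 0.04, adjusted p = 0.204 by limma). EZH1 was called lower with only shControl as control (log2 difference -0.49, adjusted p = 0.00624) and without shNontarget 1 (-0.89, adjusted p = 0.0484).

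SUV39H1, a writer of the H3K9 mark, had log2 values of -1.77 and -1.82 in shControl, -1.28 and -1.62 in shNontarget, -0.83 and -0.60 in shBEX2-1, and -0.40 and -0.31 in shBEX2-2. All knockdown arrays were above all control arrays. The difference was 1.09 (SE 0.17, adjusted p = 0.00508 by limma), a 2.12-fold change, and a second, dimmer probe gave 1.06. Against shNontarget alone it was 0.91 (adjusted p = 0.0848).

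SUV39H2, the second writer of this pair, had log2 values of -1.24 and -1.33 in shControl, -0.84 and -1.61 in shNontarget, -1.18 and -0.83 in shBEX2-1, and -0.60 and -0.49 in shBEX2-2. The first shBEX2-1 array lay within the control range, the second at its upper edge and both shBEX2-2 arrays above it. The difference was 0.48 (SE 0.21, 95% confidence interval 0.01 to 0.94, adjusted p = 0.171 by limma). Without shNontarget 1 it was 0.62 (adjusted p = 0.0422).

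Each subline was also set against the mean of both control vectors, in a model of the 4 vectors in which both share the control arrays. The BEX2 target sequences printed in the study's methods are reverse complements of each other apart from their ends. They thus name the same site, and agreement between the sublines is not that of hairpins against separate sites. In shBEX2-1 cells 4 of the 10 members were called higher, where 3.38% of all genes were, and in shBEX2-2 cells 5 of 10, where 4.85% were. UHRF1 differed by 1.70 in shBEX2-1 (adjusted p = 0.00634) and by 1.78 in shBEX2-2 (adjusted p = 0.00271). HELLS differed by 2.03 (adjusted p = 0.00718) and 2.34 (adjusted p = 0.00316). DNMT1 differed by 0.77 (adjusted p = 0.0168) and 1.14 (adjusted p = 0.00423).

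SUV39H1 differed by 0.90 in shBEX2-1 (adjusted p = 0.0244) and by 1.27 in shBEX2-2 (adjusted p = 0.00690). EZH2 differed by 0.77 in shBEX2-1, which did not pass the threshold (adjusted p = 0.120), and by 1.31 in shBEX2-2 (adjusted p = 0.0231). The log2 fold change of all 5 was larger in shBEX2-2, but the direct comparison of the sublines called 0 of the 10 members, where 0.00977% of all genes were called. Of the members, DNMT1 had the smallest unadjusted p of that comparison (0.0298, log2 difference -0.37, adjusted p = 0.578 by limma). Between shNontarget and shControl 0 members were called, where 0% of all genes were called, although 1567 genes had an unadjusted p under 0.05. The counts per subline depended on single arrays, for the members as for all genes, and not only on a subline's own arrays. All member calls in shBEX2-1 were lost without shControl 1 or shControl 2, with 1.76 and 1.64 for UHRF1 and 2.03 and 2.02 for HELLS. DNMT1 (0.77) and SUV39H1 (0.90) lost theirs in shBEX2-1 without either shBEX2-2 array. In shBEX2-2, EZH2 lost its call without any 1 array of shControl or shBEX2-1 (1.31 or 1.32), and SUV39H1 without shControl 2 (1.25). Without 1 of its own arrays a subline is left with 1 array, so that log2 differences alone are given. They are for the members called in both sublines, without replicate 1 and replicate 2 in turn. In shBEX2-1, UHRF1 had 1.64 and 1.77, HELLS 1.92 and 2.13, DNMT1 0.74 and 0.80, and SUV39H1 1.02 and 0.79. In shBEX2-2, UHRF1 had 1.76 and 1.80, HELLS 2.25 and 2.43, DNMT1 1.13 and 1.16, and SUV39H1 1.31 and 1.23. Without shNontarget 1 and without shNontarget 2 in turn, the comparison of sublines called 3 and 4 members, where 14.4% and 14.7% of all genes were called, and that of the control vectors 6 and 7, where 45.1% and 46.2% were.

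**Figure D2:**
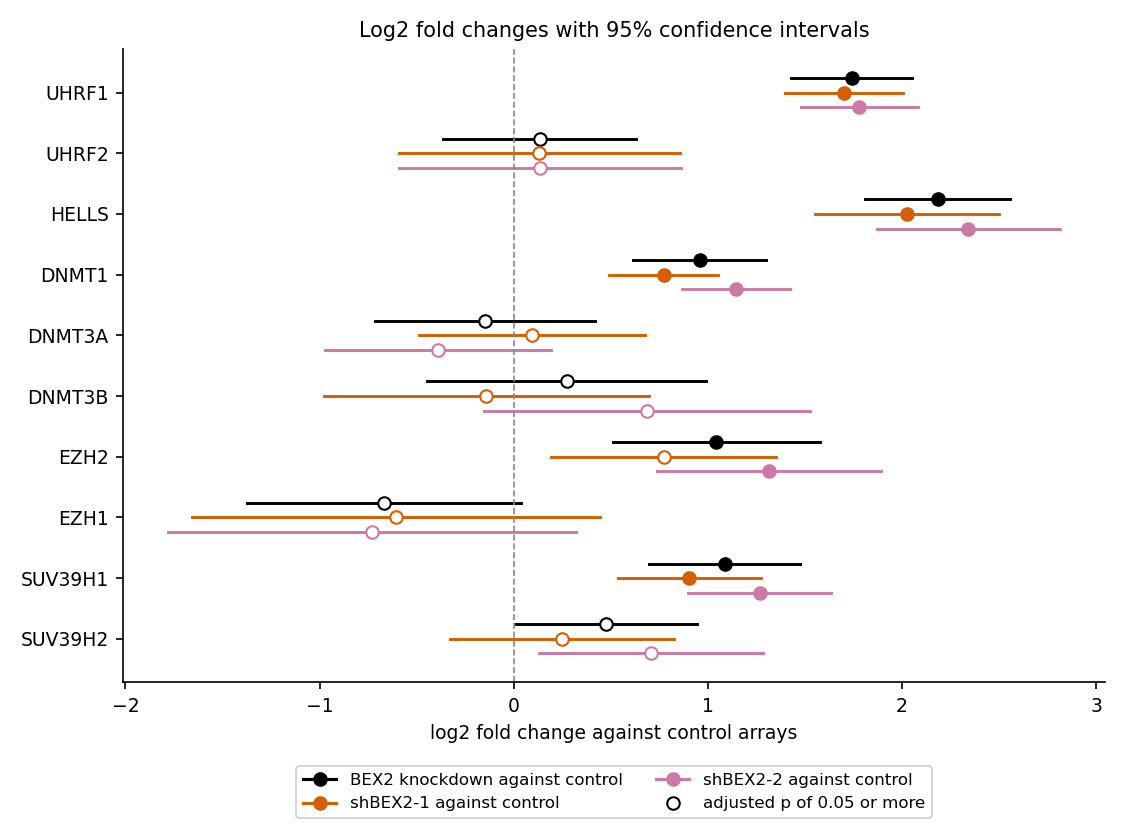
Log2 fold change against the control arrays (x axis) for each member (y axis), for all knockdown arrays and for each subline, with 95% confidence intervals as lines. Filled points passed an adjusted p of 0.05 and open points did not. UHRF1 and HELLS lie furthest to the right in all 3 comparisons, while the intervals of UHRF2, DNMT3A, DNMT3B and EZH1 include 0 in each.

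Whether paralogs changed unequally was tested on the difference of their log2 values on each array, with a two-sided exact permutation test over the 70 ways to divide the arrays into 4 and 4. UHRF1 minus UHRF2 lay between -0.57 and 0.54 on control arrays and between 1.42 and 1.61 on knockdown arrays, a shift of 1.61 (exact p = 0.0286). EZH2 minus EZH1 lay between -0.68 and 0.17 on control and between 0.97 and 1.86 on knockdown arrays, a shift of 1.71 (exact p = 0.0286). SUV39H1 minus SUV39H2 shifted by 0.61 (exact p = 0.0286), from between -0.53 and -0.01 to between 0.18 and 0.34.

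In these 3 pairs the groups did not overlap, and 0.0286 is the smallest p when single arrays are divided freely. That division treats arrays of the same vector as independent, which is not known here. The exact and adjusted p-values therefore describe these arrays and not separate sublines. A test that keeps the arrays of a vector together was not run. DNMT3B minus DNMT3A shifted by 0.42 with overlapping groups (exact p = 0.429). Adjusted over the 4 pairs compared, p was 0.0381 for the first 3 and 0.429 for the last. The shift of the SUV39H pair was weaker with the mean of all probes of a gene (0.59, exact p = 0.0857). These differences say which paralog changed more and nothing of which is more abundant, since levels of different probes cannot be compared. The pairs were named with the values of the members known, and each of the first 3 sets a called member against an uncalled one. How often other pairs of genes show groups that do not overlap was not tested.

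**Figure D3:**
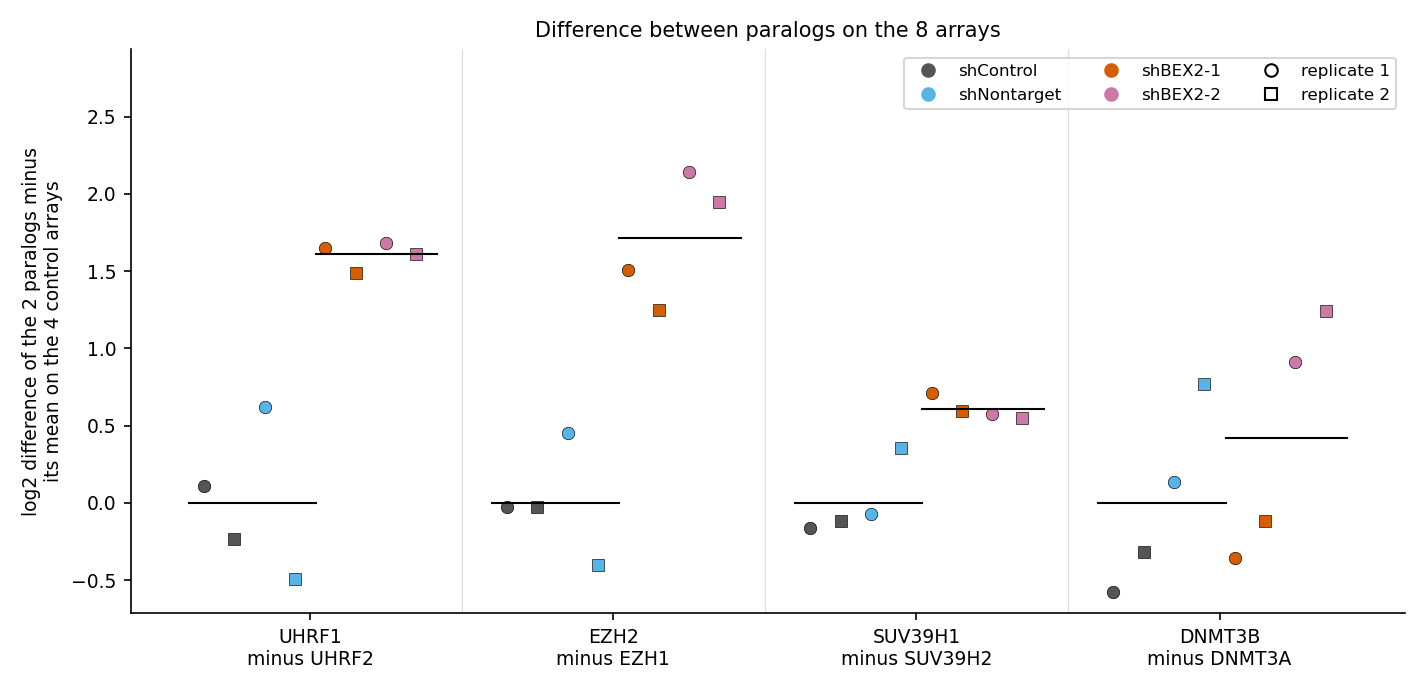
Difference in log2 intensity between the members of each pair on the 8 arrays, minus its mean on the 4 control arrays (y axis, log2 units), by pair (x axis). Colours and shapes are the vector and the replicate number, and black lines are the means of 4 arrays. The knockdown arrays lie above all control arrays for the UHRF, EZH and SUV39H pairs and overlap them for DNMT3B minus DNMT3A.

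Other genes that act with these enzymes were taken as lists and are described by counts. Of 6 partners of maintenance methylation, 4 were called higher and 1 lower, where 6.68% and 6.25% of all genes were. Their median log2 fold change was 1.27. KIAA0101 (PCLAF), a factor bound to the replication clamp, rose by 1.70, PCNA, the clamp itself, by 1.59, LIG1, the ligase that joins replicated strands, by 1.27, and CDCA7, which brings HELLS to chromatin, by 1.26, with adjusted p between 0.00289 and 0.00994 by limma. USP7, a deubiquitinase that binds DNMT1 and UHRF1, fell by 0.79 (adjusted p = 0.0191), and ZBTB24, the activator of CDCA7, had -0.20 (adjusted p = 0.365). CDCA7, USP7 and ZBTB24 were named after their values were seen. USP7 did not pass with normexp correction (log2 difference -0.28, adjusted p = 0.103) or without any 1 array of shControl or shBEX2-1 (adjusted p between 0.0568 and 0.0684). PCNA, LIG1, KIAA0101, CDCA7 and USP7 did not pass with only shNontarget as control (adjusted p between 0.0593 and 0.175).

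The MCM helicase, which unwinds DNA ahead of the replication fork and marks the replicating cell, moved beside the maintenance genes. Of its 6 subunits 5 were called higher, where 6.68% of all genes were, and 0 lower, with a median of 1.37. The largest log2 fold changes were 1.59 for MCM5, 1.58 for MCM4 and 1.44 for MCM3, with adjusted p between 0.00103 and 0.00160 by limma. The part of a difference in cell cycle in the values of UHRF1, HELLS, DNMT1 and EZH2 was not tested.

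Of the other PRC2 subunits, 3 of 9 were called higher, where 6.68% of all genes were, and 0 lower, with a median of 0.39. PHF19, a Polycomb-like accessory subunit, rose by 1.58 (adjusted p = 0.00659), and the core subunits EED by 0.62 (adjusted p = 0.0134) and SUZ12 by 0.39 (adjusted p = 0.0465). SUZ12 did not pass under quantile normalization (adjusted p = 0.119), and without any 1 array of shControl, shBEX2-1 or shBEX2-2 its adjusted p was between 0.0869 and 0.151. EED did not pass without either array of shControl or shBEX2-2 (adjusted p between 0.0526 and 0.0570). The H3K27 demethylases KDM6A and KDM6B had -0.26 and -0.61 and were not called, but both were called lower against shControl alone (adjusted p = 0.0158 and 0.0203) and without shNontarget 1 (adjusted p = 0.0446 and 0.0199). Of 16 subunits of Polycomb repressive complex 1, 0 were called higher and 2 lower, RING1 by -0.65 and PHC2 by -0.65, with a median of -0.31 over the list. Of all genes 6.25% were called lower and 12.9% in all, and the list as a set was not tested. RING1 did not pass without either array of shControl or shBEX2-2 (adjusted p between 0.0579 and 0.0926).

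The other genes of H3K9 methylation and of heterochromatin are read against the 12.9% of all genes called. Of 7 other H3K9 writers and cofactors 1 was called, ATF7IP, a partner of SETDB1, which rose by 0.51 (adjusted p = 0.0135, or 0.0505 without shBEX2-2 1). Of 7 heterochromatin readers and H4K20 writers 1 was called, CBX5 (HP1 alpha), which rose by 0.51 (adjusted p = 0.0355) and did not pass without any 1 array of shControl, shBEX2-1 or shBEX2-2 (adjusted p between 0.0618 and 0.104). Of 9 H3K9 demethylases 1, KDM4D, was called higher and 2 lower. JHDM1D (KDM7A) fell by 1.21 (adjusted p = 0.00607) and KDM4C fell by 0.52 (adjusted p = 0.0407), and with the mean of all probes of a gene neither passed (adjusted p = 0.0921 and 0.224). KDM4C also did not pass without any 1 array of shControl, shBEX2-1 or shBEX2-2 (adjusted p between 0.0697 and 0.113). KDM4D was well above background on the 4 knockdown arrays and on no control array, so that it was tested only through the group where it is high and its call is no support. It measured 4.02-fold higher on knockdown arrays (adjusted p = 0.0173 by limma, but 0.05 or more, up to 0.0550, without shBEX2-1 1, shBEX2-1 2 or shBEX2-2 1). The measured mean log2 values were -6.60 in control and -4.59 in knockdown arrays. The size is uncertain because the control values were not well above background. With normexp correction the log2 difference of KDM4D was 0.62. Against shNontarget alone ATF7IP, CBX5, KDM4C, JHDM1D, EED, SUZ12, PHF19, RING1 and PHC2 did not pass (adjusted p between 0.0837 and 0.272).

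None of the 10 tested genes that read or remove DNA methylation was called, where 12.9% of all genes were. Of 7 methyl-CpG readers 0 were called, with a median of 0.13. Of the oxidation and repair enzymes, TET2 had -0.32, TDG 0.04 and MBD4 0.03, with TDG and MBD4 changing sign with the setting and adjusted p between 0.249 and 0.937 for the 3, and TET1 and TET3 were too dim to be tested. TET2 was called lower without shNontarget 1 (-0.45, adjusted p = 0.0476). TRDMT1, the relative of the DNA methyltransferases that acts on transfer RNA, had 0.41 (adjusted p = 0.353), and DNMT3L was too dim to be tested. Of 21 germline genes that DNA methylation is known to keep silent in somatic cells, 19 were on the array, 3 were bright enough to be tested and 0 were called. These were STK31 with -0.38, MAGEB2 with -0.17 and SSX2 with 0.13, each of which changed sign under at least 1 other setting. The probe of MAGEB2 was well above background on only 3 control arrays and 1 knockdown array.

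**Figure D4:**
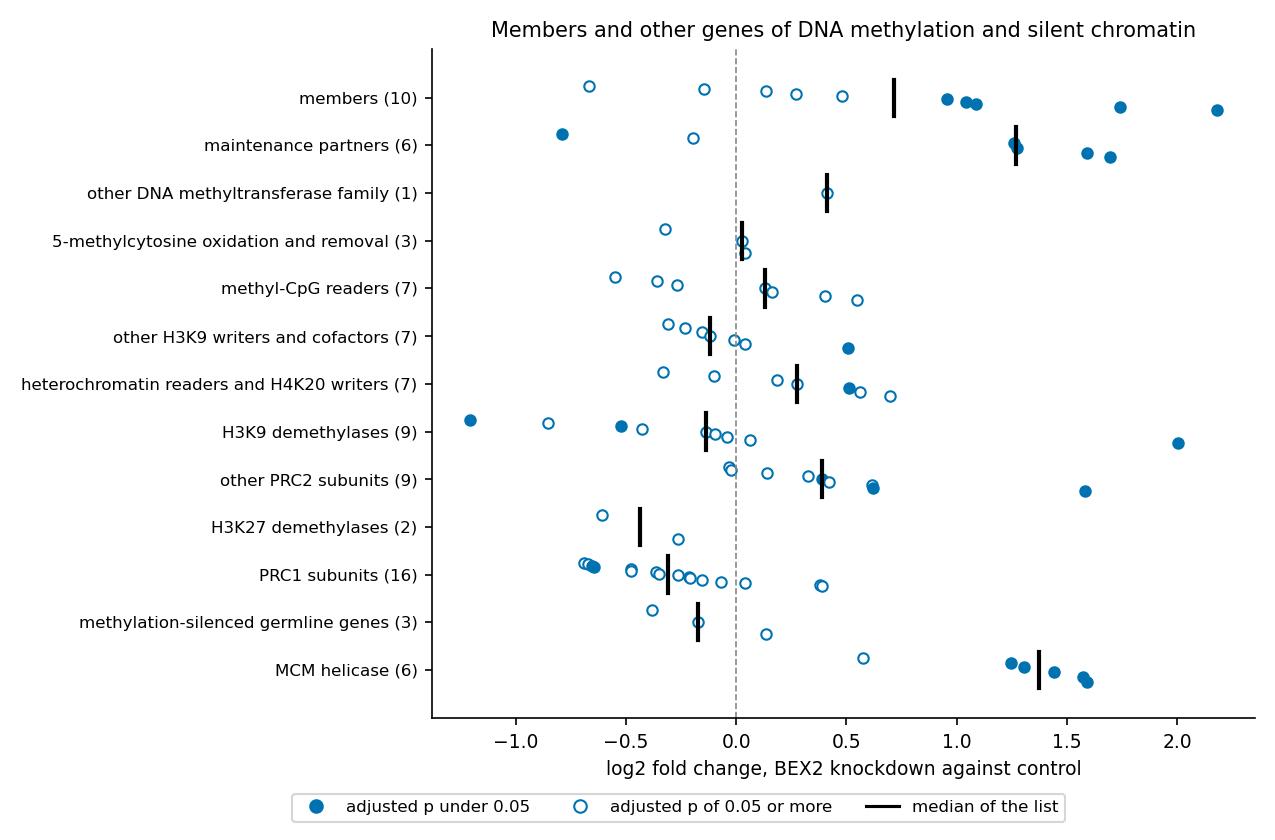
Log2 fold change of BEX2-knockdown against control (x axis) for the members and each list, with the number of genes tested in parentheses (y axis). Filled points passed an adjusted p of 0.05, open points did not, and black bars are medians. The lists of maintenance partners and of the MCM helicase have medians of 1.27 and 1.37, next to 0.72 for the members. The point of KDM4D at 2.01 rests on control arrays where its probe was not well above background.

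The genes most like UHRF1 over the 8 arrays, by Pearson's r of normalized log2 intensity with the members left out, were HAUS8 (r = 0.996), STIL (0.996), AGFG2 (0.994), LOC100128191 (0.994) and RBL1 (0.994). Their log2 fold changes lay between 1.28 for HAUS8 and 1.79 for STIL, and the positive sign follows from the choice by r with UHRF1. In all, 348 genes exceeded an r of 0.95 with UHRF1. The genes most like EZH2 were BAIAP2 (0.995), MAP3K3 (0.993), HOXB6 (0.993), GUSB (0.991) and GJC1 (0.991), and 207 genes exceeded 0.95. These correlations rest on 8 arrays in 2 groups and are descriptions. They share the vectors and the slide, and those of EZH2 share the high value of shNontarget 2.

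**Figure D5:**
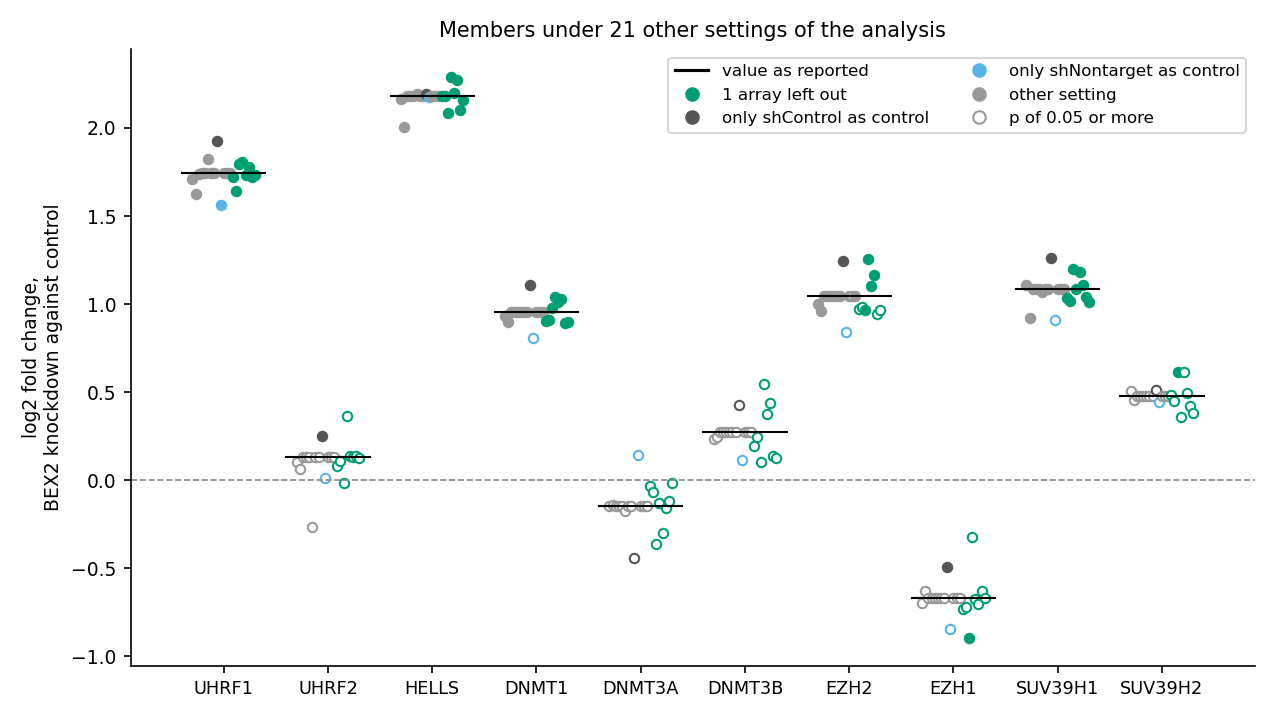
Log2 fold change of BEX2-knockdown against control (y axis) for each member (x axis) under 21 other settings of the analysis, with the value as reported as a black line. Filled points had a p under 0.05, which is adjusted except for the unadjusted test of the study's methods, and open points did not. The lowest points of UHRF1 and HELLS are 1.56 and 2.01, whereas the points of UHRF2 and DNMT3A fell on both sides of 0.

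Under these 21 settings, UHRF1 ranged from 1.56 to 1.92 and HELLS from 2.01 to 2.29, and both passed the threshold in all of them. DNMT1 ranged from 0.81 to 1.11 and SUV39H1 from 0.91 to 1.26, and each passed in 20 of 21. EZH2 ranged from 0.84 to 1.25 and passed in 15 of 21.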

How the data were processed

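Total RNA of HuCCT1 sublines was extracted with RNeasy columns, labelled with Cy3 and hybridized to 1-colour Agilent arrays (annotated on hg19) by the study's authors. Per the labels, Feature Extraction 10.7.3.1 gave the deposited processed intensity, background-subtracted within an array and left unscaled between arrays. The deposited series table held the same intensity values to within 0.497% and served as an alternative.

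Control spots and non-uniform spots were left out, log2 intensity minus each array's 75th percentile was taken, a probe needed to be well above background on 4 or more of 8 arrays, and each gene was read by its brightest such probe. limma 3.58.1 (lmFit, eBayes with trend, statmod 1.5.0) in R 4.3.3 compared 4 knockdown with 4 control arrays, with Benjamini-Hochberg adjustment over 20464 genes and a threshold of 0.05. A second model had the 4 vectors as groups. Paralog pairs were tested by exact permutation of single arrays, without keeping the arrays of a vector together. The scripts were tested on simulated data. Files were read and figures drawn in Python 3.11.15 (numpy 2.4.6, pandas 2.3.3, matplotlib 3.10.9). The rank product named in the methods was not run. A gene of no member was named if it was among the 3 largest calls of its list, in a list with 5 or fewer genes tested, or 1 of the 5 genes most like UHRF1 or EZH2. CDCA7, USP7, ZBTB24 and the cell type markers are named outside this rule. The members and lists were chosen with earlier results of these data known. Arrays of another knockdown in the study were not analysed here.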

Additional observations from a re-analysis of the deposited data

Results flagged for a closer look

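In 2 of 30 sets of 4 arrays that were checked, 1 array lay far from the other 3, where chance gives about 1 in 20. Among the control arrays of EZH2, shNontarget 2 read 0.907 on the normalized log2 scale while the others lay between 0.0509 and 0.0886. Among those of SUV39H1 minus SUV39H2, shNontarget 2 read -0.0126 while the others lay between -0.531 and -0.443. The array is 1 of the shNontarget pair, between which 34.9% of genes differed by over 1 log2 unit, and its part in these values was not tested. No member differed between the sublines by the test of the difference.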

How the results depend on the processing

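With only shControl as control, called genes numbered 6840 for the knockdown, 8919 for shBEX2-1 (7 members) and 9016 for shBEX2-2 (10 members). With only shNontarget they were 341 (2 members), 0 (0 members) and 64 (1 member), the log2 difference of BEX2 was -1.83 (adjusted p = 0.0787 by limma) and DNMT3A turned to 0.145. With 2 control arrays the smallest exact p is 0.0667, which the pairs took: UHRF1 minus UHRF2 shifted by 1.67 and 1.54 with shControl and shNontarget, EZH2 minus EZH1 by 1.74 and 1.69, and SUV39H1 minus SUV39H2 by 0.749 and 0.467, while DNMT3B minus DNMT3A turned to -0.0296 with shNontarget (exact p = 0.933). The normexp correction gave BEX2 -0.455 (adjusted p = 0.0792 by limma) and shBEX2-1 2432 called genes. The methods' t-test called 5423 genes at its unadjusted threshold and 2175 after Benjamini-Hochberg, EZH2 not among the latter (adjusted p = 0.0623). The mean of all probes gave SUV39H1 minus SUV39H2 0.593 (exact p = 0.0857) and turned UHRF2 to -0.267 and TDG to -0.00218. TDG was also -0.0631 under quantile normalization, -0.111 with only shNontarget, -0.0319 without shControl 1 and -0.0946 without shNontarget 1. MBD4 was -0.128 with only shNontarget and between -0.0452 and -0.00146 without either shControl or either shBEX2-2 array. MAGEB2 was 0.156 under normexp and 0.0962 with only shNontarget, SSX2 was -0.0343 with only shNontarget and STK31 was 0.00759 with only shControl. The cause of these changes was not tested.

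Leaving out 1 array at a time gave 1245 to 4722 called genes for the knockdown, 0 to 10821 for shBEX2-1 (0 to 8 members), 0 to 11151 for shBEX2-2 (0 to 9 members), 0 to 4 members between sublines and 0 to 7 between control vectors, with the highest counts without a shNontarget array. Without an array of its own, a subline is left with 1 array, assumed to vary like the others. SUV39H1 minus SUV39H2 ran from 0.554 to 0.727, with an exact p of 0.0571 without any 1 knockdown array, UHRF2 from -0.0164 without shNontarget 1 to 0.363 without shNontarget 2, and TDG from -0.0946 to 0.270 without the same arrays. The replicate numbers did not pair the samples, as correlations of replicate differences between vectors ran from -0.0628 to 0.259. With the replicate block 2458 genes were called and the same count of members, 5, 4 and 5, and of the other named genes CBX5 (adjusted p = 0.0508) and SUZ12 (adjusted p = 0.0652) lost their call. Signal over background limits BEX2 in shBEX2-1, KDM4D in control, MAGEB2 in both groups and the genes too dim to be tested.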
